A study of Homo sapiens with 12 samples.

Results

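Excision repair and mismatch repair genes were examined in poly(A) RNA from the human uveal melanoma cell lines 92.1 and MP38. The set holds 39 genes, chosen by symbol from both deposited count tables, of 44938 features listed for 92.1 and 42342 for MP38. By their textbook roles 5 act in mismatch repair, 20 in base excision and DNA single-strand break repair, 11 in nucleotide excision repair and 3 in direct reversal of alkylated bases. The groups were 92.1 cells in VE-822, 92.1 cells in DMSO, MP38 cells in VE-822 and MP38 cells in DMSO, with 3 libraries each. VE-822 (berzosertib) inhibits ATR, which protects stalled replication forks, and DMSO is its solvent. Exposure lasted 72 hours in all groups, and the dose, not given in the labels, was set in each line for about 40% viability. Dose and cell line therefore cannot be told apart. Each line stands for 1 tumour, and it is not stated if replicate libraries were grown as separate cultures, so p-values measure the spread between these libraries, which may be technical. In bulk RNA, fewer cells of a kind and less RNA per cell cannot be told apart.

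Mismatch repair corrects bases that the replicative polymerases paired wrongly: MutS dimers bind the mismatch, and MutL dimers then nick the new strand. In base excision repair a glycosylase removes a damaged base, a nuclease cuts the abasic site, and a polymerase, a ligase and the scaffold XRCC1 close the gap, with the PARP enzymes sensing the open break. Nucleotide excision repair removes bulky lesions such as the photoproducts of ultraviolet light, by opening the helix with the TFIIH helicases and cutting on either side. Some of these proteins work beside the replication fork and are made mainly in dividing cells, whereas others serve resting and dividing cells alike.

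Total counts per library were 113370680 to 137664800 in VE-822 and 112374503 to 123705501 in DMSO for 92.1, and 54415628 to 60891725 in VE-822 and 61045071 to 63638976 in DMSO for MP38. All 39 members passed the filter on low counts in both lines. Their counts per library ran from 177 (MUTYH) to 62221 (PARP1) in 92.1 and from 196 (MUTYH) to 23884 (DDB1) in MP38. DMSO library 3 of 92.1 stood apart: its chi-square per gene against DMSO libraries 1 and 2 was 82.0 and 82.6, while the other replicate pairs of the study had 2.30 to 7.45. Results of 92.1 are therefore also given without it. The melanocyte lineage markers MITF, PMEL, MLANA, TYR, TYRP1, DCT, SOX10 and S100B all had counts in both lines and summed to 1524 to 5502 FPKM in VE-822 and 1287 to 4960 FPKM in DMSO, while the lists of fibroblast, blood cell, endothelial and epithelial markers each summed to at most 0.912 FPKM. Single lineage markers differed widely between the lines in DMSO. The log2 difference, 92.1 over MP38, was -10.9 for S100B, -5.51 for DCT and 8.75 for TYRP1.

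The promoters of 36 of the 39 members were found in the RefSeq table for GRCh38.p14 as 50 windows, each from 250 bases before to 50 bases after a transcription start; NEIL2, SMUG1 and POLB had no entry. The windows were searched on both strands for the E2F motif, spelled here as TTTCCCGC, TTTCGCGC, TTTGGCGC or TTTGCCGC, and for the cell cycle homology region (CHR), spelled TTTGAA or TTCGAA, which are the elements by which E2F and MuvB complexes bind genes of the dividing cell. E2F matches were found in 4 members (11.1% of 36), against 3.99% of all 27305 genes in the table. They were MSH3, MSH6, PMS2 and UNG, so 3 of 5 mismatch repair genes, 1 of 17 base excision genes and none of 11 nucleotide excision genes held one. In MSH3 a TTTGGCGC and, on the other strand, a TTTCGCGC overlapped. All 4 genes were lower after VE-822 in 92.1, as were 20 of the 36 members with a promoter and 19.6% of all genes tested. The same 4 genes were lower in MP38, as were 15 of all 39 members and 25.4% of all genes tested. CHR matches were found in 8 members (22.2%, against 19.5% of all genes), 6 of them lower in 92.1. In MP38 NEIL3, PARP2, TDP1 and ERCC1 of these 8 were higher, UNG was lower, and XRCC1, MUTYH and ERCC6 were not called. Nothing is read from these counts of 4 and 8 genes. A match is a description of the letters and not of binding, and no match says only that these letters were not in the window. Capitals mark E2F and CHR matches in the following windows, which are those of 3 members with an E2F match, MSH6, PMS2 and UNG, and of NEIL3 and PARP2, the members whose response differed most between the lines.
MSH6, chr2:47782895-47783194, plus strand: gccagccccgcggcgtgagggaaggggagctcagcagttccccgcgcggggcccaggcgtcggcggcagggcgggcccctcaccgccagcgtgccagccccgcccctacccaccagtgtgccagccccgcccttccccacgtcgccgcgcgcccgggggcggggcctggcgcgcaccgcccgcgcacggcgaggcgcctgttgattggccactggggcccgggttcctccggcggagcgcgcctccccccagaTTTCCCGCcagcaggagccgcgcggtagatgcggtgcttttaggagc
PMS2, chr7:6009000-6009299, minus strand: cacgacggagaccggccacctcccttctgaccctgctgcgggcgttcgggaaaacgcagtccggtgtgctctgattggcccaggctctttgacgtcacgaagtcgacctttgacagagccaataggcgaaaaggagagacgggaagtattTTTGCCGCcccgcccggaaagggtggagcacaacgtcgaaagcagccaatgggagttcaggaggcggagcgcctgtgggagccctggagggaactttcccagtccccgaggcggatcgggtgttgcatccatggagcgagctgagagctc
UNG, chr12:109097922-109098221, plus strand: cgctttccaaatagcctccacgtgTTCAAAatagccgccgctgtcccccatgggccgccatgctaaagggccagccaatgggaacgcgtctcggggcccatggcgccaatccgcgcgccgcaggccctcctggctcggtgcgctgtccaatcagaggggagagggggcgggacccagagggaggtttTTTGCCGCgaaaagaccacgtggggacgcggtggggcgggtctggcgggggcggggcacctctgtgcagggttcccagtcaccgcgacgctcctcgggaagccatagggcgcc
NEIL3, chr4:177309624-177309923, plus strand: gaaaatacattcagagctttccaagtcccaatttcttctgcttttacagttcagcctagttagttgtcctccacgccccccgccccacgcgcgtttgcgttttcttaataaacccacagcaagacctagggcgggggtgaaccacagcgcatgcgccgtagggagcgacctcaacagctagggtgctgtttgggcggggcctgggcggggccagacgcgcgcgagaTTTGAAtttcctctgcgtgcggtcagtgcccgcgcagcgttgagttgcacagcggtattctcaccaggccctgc
PARP2, chr14:20343385-20343684, plus strand: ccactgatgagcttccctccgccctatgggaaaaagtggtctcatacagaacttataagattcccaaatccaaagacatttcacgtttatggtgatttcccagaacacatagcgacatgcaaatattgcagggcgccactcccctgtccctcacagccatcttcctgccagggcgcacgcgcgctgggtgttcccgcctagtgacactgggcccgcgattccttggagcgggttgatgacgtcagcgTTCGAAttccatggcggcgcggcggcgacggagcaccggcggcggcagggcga
MSH6 has TTTCCCGC just after its first start, PMS2 has TTTGCCGC, and UNG has TTTGCCGC near the start together with a TTTGAA read on the other strand farther upstream. NEIL3 has TTTGAA and PARP2 TTCGAA, both close to the start. RefSeq lists 4 starts for MSH6, 2 for PMS2 and 2 for UNG. The windows shown for MSH6 and UNG are the ones with a match. Both windows of PMS2 hold the same match, and 1 of them is shown.

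**Figure D1:**
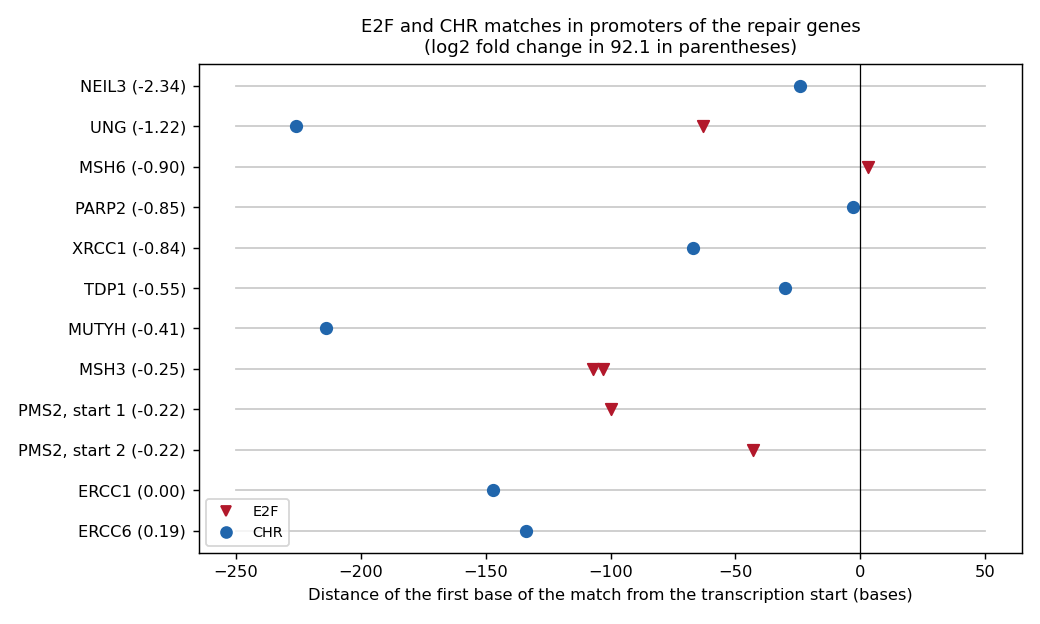
Distance in bases from the transcription start (vertical line) of each E2F match (triangles) and CHR match (circles) in the members' promoter windows (grey lines), ordered by the log2 fold change in 92.1 given in parentheses. All 4 genes with an E2F match and 6 of the 8 with a CHR match were lower after VE-822 in 92.1. So were 20 of the 36 members with a promoter and 19.6% of all genes tested. In MP38 all 4 with an E2F match were also lower, but of those with a CHR match only UNG was, against 25.4% of all genes tested.

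In 92.1, most mismatch and base excision repair genes fell after VE-822, while nucleotide excision genes mostly did not pass the test. All 5 mismatch repair genes, 13 of 20 base excision genes, 1 of 11 nucleotide excision genes and 1 of 3 direct reversal genes were lower (edgeR, adjusted p under 0.05). Only NEIL2 and MPG, both base excision glycosylases, were higher, and 17 members did not pass the threshold. In all, 20 of 39 members (51.3%) were lower, against 19.6% of the 22943 genes tested, and 2 were higher, against 20.3%; 39.9% of all genes were called in either direction. The VE-822 and DMSO libraries did not overlap in 30 members, and in 52.9% of all genes. The median log2 fold change was -0.25 for mismatch repair, -0.29 for base excision, -0.0001 for nucleotide excision and -0.14 for direct reversal, beside 0.03 for all genes tested. Without DMSO library 3, 26 members were lower and 4 higher, with 29% and 26.8% of all genes and 55.7% in either direction, and 6 nucleotide excision genes were then lower and 1 higher, so the count for that pathway rests on this library. Those lower were XPA, ERCC3, ERCC8, RAD23B, DDB1 and CETN2, and ERCC6 was higher. Without VE-822 library 3, 13 members were lower and 2 higher, with 3343 genes lower and 3399 higher in all. The nucleotide excision median was -0.11 without DMSO library 3, beside -0.28 for mismatch repair and -0.33 for base excision. With library size as the only scaling, which leaves 5684 genes of 92.1 higher and 3534 lower, beside 4658 and 4498 with TMM, 6 members were higher and 14 lower. Of the members, 13 were lower and 1 higher under every setting tried. The 13 were 3 mismatch repair genes, 9 base excision genes and ALKBH2, and the 1 was NEIL2. The share of all genes that kept a call under every setting is not given here, so these counts have no background.

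**Figure D2:**
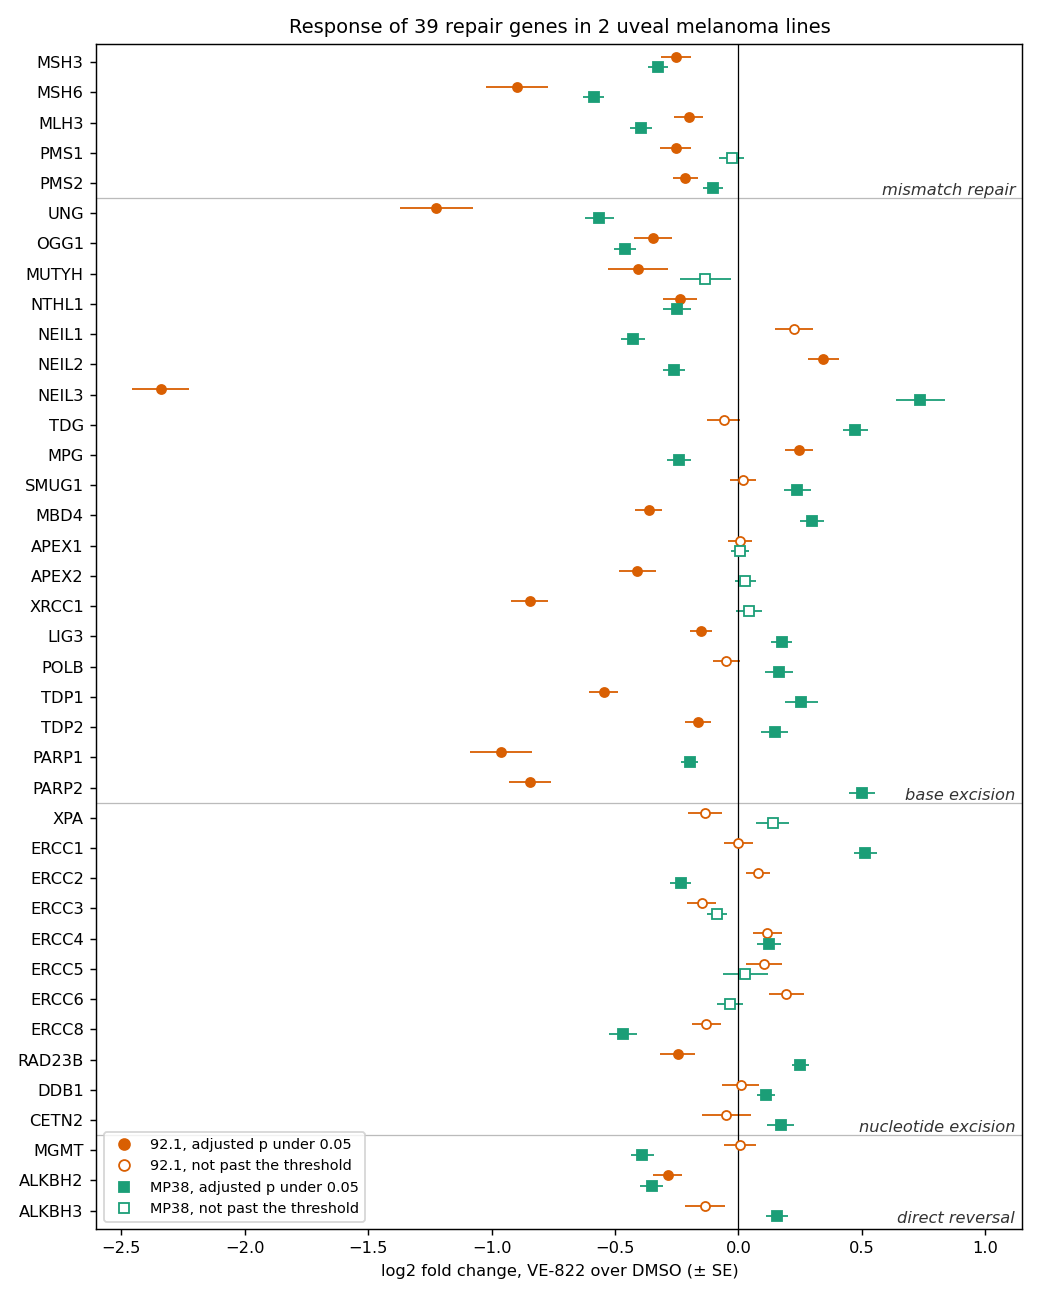
Log2 fold change (VE-822 over DMSO, ± SE) of every member in 92.1 (circles) and MP38 (squares), by pathway; filled symbols have an adjusted p under 0.05. In 92.1 all 5 mismatch repair genes lie left of 0 and NEIL3 lies farthest left at -2.34, while 10 of 11 nucleotide excision genes are open symbols near 0.

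MSH6, the MutS subunit that recognises base mismatches, had 68.7, 66.7 and 63.9 CPM in the VE-822 libraries of 92.1, against 139.9, 135 and 96.1 CPM in its DMSO libraries. The groups did not overlap, but DMSO library 3 lay nearer the treated libraries than DMSO libraries 1 and 2 did. Its log2 fold change was -0.90 ± 0.125 (SE; adjusted p = 6.69e-04), and -1.08 without that library. PMS1, a MutL subunit whose role in repair is unclear, had 26.6, 27.4 and 25.5 CPM in the VE-822 libraries of 92.1, against 31.5, 33.5 and 29.8 CPM in its DMSO libraries. This was a small fall with groups that did not overlap (log2 fold change -0.25 ± 0.0628, adjusted p = 0.0119), and it lost its call without VE-822 library 3 (adjusted p = 0.0546). MSH3, the MutS subunit for small loops, PMS2, the nicking subunit of the main MutL dimer, and MLH3, which forms a further MutL dimer, fell by 0.25, 0.22 and 0.20 on the log2 scale. The MLH3 call was lost without any 1 of the 3 VE-822 libraries. PMS2 has near-identical pseudogene copies, of which PMS2CL alone had 1204 to 1521 counts per library in 92.1 and 630 to 817 in MP38, so its level is uncertain.

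Among the glycosylases of 92.1 the responses went both ways. NEIL3, which removes oxidised bases and acts mainly in dividing cells, had 3.39, 3.34 and 2.51 CPM in the VE-822 libraries of 92.1, against 15.7, 16.1 and 15.01 CPM in its DMSO libraries. The treated libraries lay far below every DMSO library, and the log2 fold change of -2.34 ± 0.116 was the largest among the members in either line. UNG, which removes uracil and as its nuclear form travels with the fork, had 22.4, 21.2 and 19.5 CPM in the VE-822 libraries of 92.1, against 56.3, 54.5 and 36.7 CPM in its DMSO libraries. It fell by 1.22 ± 0.149 on the log2 scale (adjusted p = 3.12e-04), with DMSO library 3 again below the other DMSO libraries, and by 1.43 without it. NEIL2, a glycosylase for oxidised bases that is not tied to the cycle, had 78.9, 77.95 and 75.5 CPM in the VE-822 libraries of 92.1, against 63.4, 64.1 and 55.5 CPM in its DMSO libraries, and all treated libraries were above all DMSO libraries (log2 fold change 0.34 ± 0.0628). MPG, which removes alkylated purines, had 24.6, 26.1 and 25.2 CPM in the VE-822 libraries of 92.1, against 20.9, 21.2 and 22.02 CPM in its DMSO libraries. It rose by 0.24 ± 0.0558 on the log2 scale (adjusted p = 0.00834), a call lost without VE-822 library 2. NEIL1, a glycosylase of the same family as NEIL2, had a similar value of 0.22 ± 0.0789 that did not pass the threshold (adjusted p = 0.0501), and did so without DMSO library 3. OGG1, the glycosylase for oxidised guanine, MUTYH, which removes adenine mispaired with it, and NTHL1, which removes oxidised pyrimidines, fell by 0.35, 0.41 and 0.24; the calls of MUTYH and NTHL1 were each lost on leaving out any 1 of 5 libraries. MBD4, which removes thymine mispaired at methylated sites, had 21.3, 21.5 and 21.04 CPM in the VE-822 libraries of 92.1, against 28.03, 27.8 and 26.2 CPM in its DMSO libraries, a fall of 0.36 on the log2 scale with no overlap. TDG and SMUG1, which act on mispaired thymine and on uracil, had log2 fold changes of -0.06 ± 0.0680 and 0.02 ± 0.0520 and did not pass the threshold; without DMSO library 3 TDG was -0.17 and called lower (adjusted p = 9.68e-05).

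Past the glycosylase step, 6 of the 7 genes of gap filling and single-strand break repair fell in 92.1, with a median log2 fold change of -0.55. PARP1, the main sensor of DNA strand breaks, had 263, 249.7 and 241 CPM in the VE-822 libraries of 92.1, against 556, 530.0 and 382 CPM in its DMSO libraries. Every treated library lay below every DMSO library, and the log2 fold change was -0.96 ± 0.125, or -1.14 without DMSO library 3. PARP2, its smaller relative, had 18.4, 17.99 and 17.05 CPM in the VE-822 libraries of 92.1, against 34.5, 33.5 and 28.1 CPM in its DMSO libraries, which was -0.85 ± 0.0844 on the log2 scale. XRCC1, the scaffold of the break repair complex, had 15.3, 14.96 and 14.2 CPM in the VE-822 libraries of 92.1, against 25.6, 24.96 and 29.3 CPM in its DMSO libraries. Here DMSO library 3 was the highest library, unlike for PARP1 and PARP2, and the log2 fold change of -0.84 ± 0.0749 became -0.80 without it. TDP1, which frees trapped topoisomerase I from DNA ends, had 18.99, 18.9 and 17.7 CPM in the VE-822 libraries of 92.1, against 27.2, 27.9 and 26.1 CPM in its DMSO libraries, a fall of 0.55. TDP2, which frees topoisomerase II, had 40.9, 40.2 and 38.6 CPM in the VE-822 libraries of 92.1, against 44.5, 46.01 and 43.7 CPM in its DMSO libraries. Its fall of 0.16 on the log2 scale was small beside that of TDP1. LIG3, the ligase bound to XRCC1, had 55.9, 57.1 and 57.3 CPM in the VE-822 libraries of 92.1, against 64.8, 61.8 and 62.6 CPM in its DMSO libraries. Its fall was the smallest of the 6 at 0.15, and its call was lost on leaving out any of 5 libraries and with a replicate block (adjusted p = 0.0514), as that of TDP2 was on leaving out any of 4. POLB, the gap-filling polymerase, was 43.6 ± 0.753 CPM in VE-822 and 45.1 ± 2.51 CPM in DMSO (SD over 3 libraries, as for every mean in the text) and did not pass the threshold (adjusted p = 0.523). The abasic site nucleases parted: APEX2, the minor and fork-linked enzyme, fell by 0.41, while APEX1, the main enzyme, was 321 ± 15.4 CPM in VE-822 and 320.2 ± 3.72 CPM in DMSO (adjusted p = 0.945).

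In the nucleotide excision pathway of 92.1, RAD23B, the partner that stabilises the lesion sensor, had 212, 203 and 198 CPM in the VE-822 libraries of 92.1, against 255, 256 and 215 CPM in its DMSO libraries. It fell by 0.25 ± 0.0721 on the log2 scale (adjusted p = 0.0250), with DMSO library 3 close to the highest treated library, and the call was lost on leaving out any of 4 other libraries. The other 10 members had log2 fold changes of -0.15 (ERCC3, the XPB helicase) to 0.19 (ERCC6, the transcription coupling factor CSB), and none passed the threshold. DDB1, the adaptor of the lesion-binding ubiquitin ligase, was 297 ± 2.78 CPM in VE-822 and 295 ± 32.3 CPM in DMSO with a log2 fold change of 0.01 ± 0.0756; without DMSO library 3 it was -0.11 and called lower (adjusted p = 0.00481). CETN2, a centrin of the lesion sensor, likewise was -0.05 with that library and -0.20 without it. Of the direct reversal enzymes, ALKBH2, which demethylates bases near the fork, had 24.6, 23.9 and 22.4 CPM in the VE-822 libraries of 92.1, against 29.2, 29.001 and 28.2 CPM in its DMSO libraries. It fell by 0.29 with no overlap, while MGMT, which takes methyl groups off guanine, was 14.7 ± 0.739 CPM in VE-822 and 14.6 ± 0.421 CPM in DMSO (adjusted p = 0.954).

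**Figure D3:**
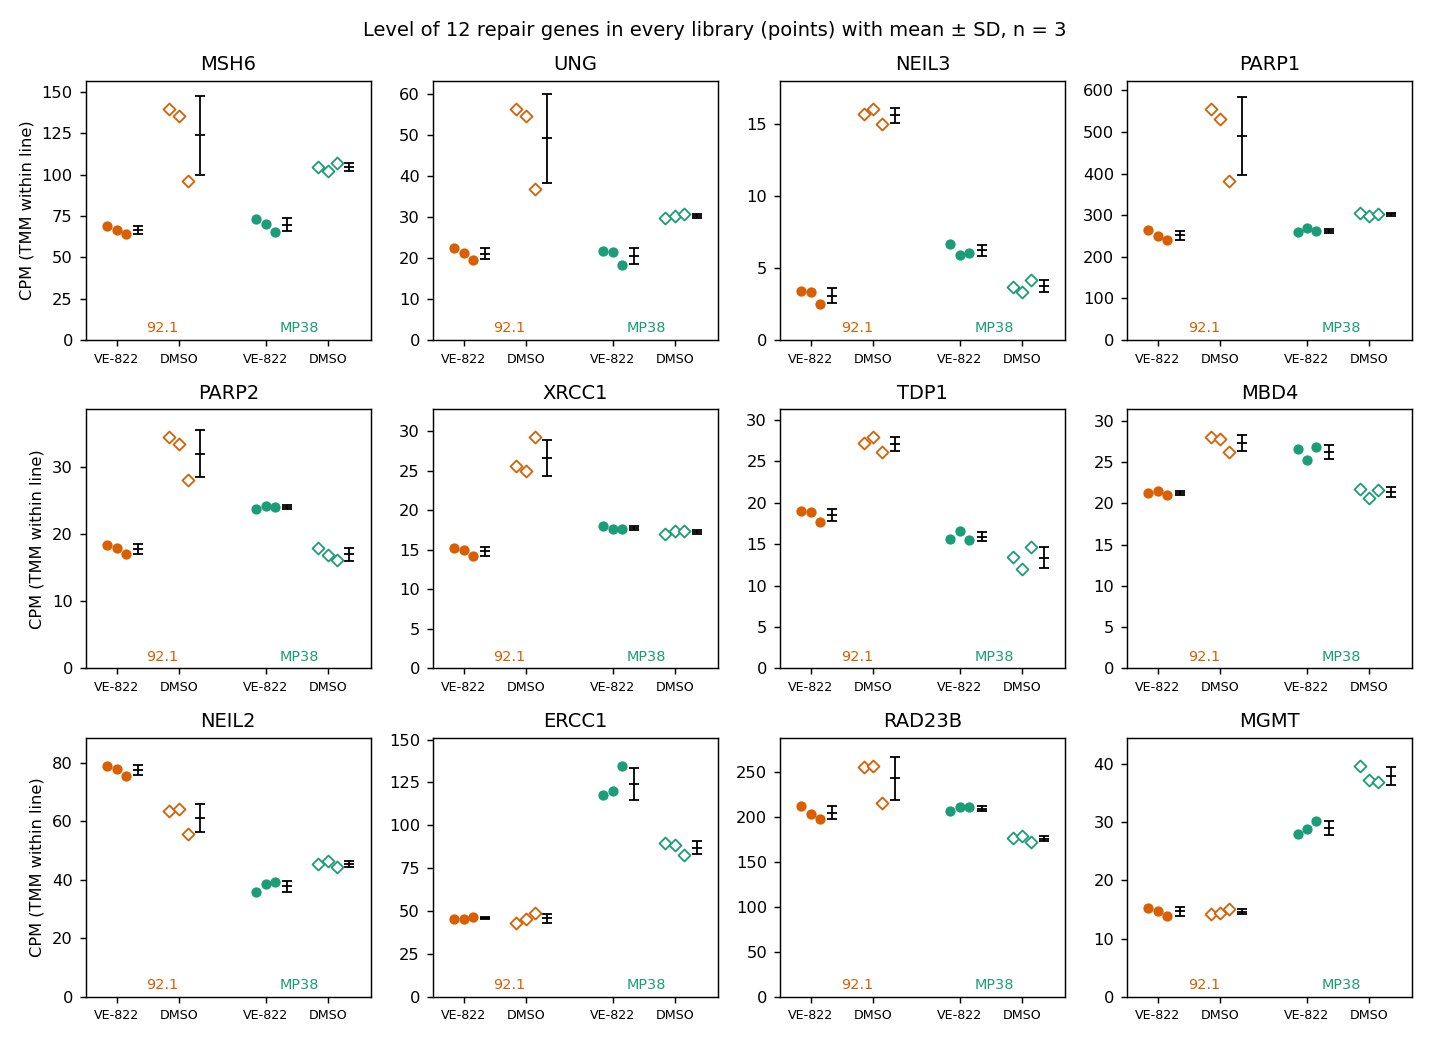
CPM of 12 members in each library (points) with mean ± SD beside them (n = 3), 92.1 on the left and MP38 on the right of each panel, VE-822 (filled) left of DMSO (open). Treated libraries of 92.1 lie below its DMSO libraries for MSH6, UNG, NEIL3, PARP1, PARP2, XRCC1, TDP1, MBD4 and RAD23B, while in MP38 NEIL3, PARP2, TDP1, MBD4, ERCC1 and RAD23B lie above theirs.

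In MP38, mismatch repair genes also fell after VE-822, but base excision and nucleotide excision genes went both ways. Of the mismatch repair genes 4 were lower and PMS1 was not called, with a median log2 fold change of -0.33. Of the base excision genes 9 were higher and 7 lower (median 0.04), of the nucleotide excision genes 5 were higher and 2 lower (median 0.11), and of the direct reversal genes 1 was higher and 2 lower (median -0.35). Over all 39 members 15 were higher and 15 lower, that is 38.5% each way, against 26.9% higher and 25.4% lower among the 21415 genes tested, of which 52.3% were called in either direction and whose median was -0.01. The libraries did not overlap in 32 members, and in 58.7% of all genes. None of the changes reached 1 on the log2 scale. Leaving out any 1 library left 12 to 14 members higher and 14 to 15 lower.

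MSH6 had 73.2, 70.3 and 65.5 CPM in the VE-822 libraries of MP38, against 105, 102 and 107 CPM in its DMSO libraries. All treated libraries were lower, by 0.59 ± 0.0422 on the log2 scale (adjusted p = 3.22e-10). MLH3 had 37.9, 41.1 and 39.4 CPM in the VE-822 libraries of MP38, against 53.2, 49.8 and 52.8 CPM in its DMSO libraries, again without overlap (log2 fold change -0.40 ± 0.0437). MSH3 fell by 0.33 and PMS2 by 0.10, the call of PMS2 being lost on leaving out any library and with DESeq2 (adjusted p = 0.0773). PMS1 was 20.5 ± 0.386 CPM in VE-822 and 20.9 ± 0.775 CPM in DMSO and did not pass the threshold (adjusted p = 0.675).

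Glycosylases of MP38 fell in 6 cases and rose in 4. UNG had 21.7, 21.3 and 18.2 CPM in the VE-822 libraries of MP38, against 29.7, 30.2 and 30.6 CPM in its DMSO libraries. It fell by 0.56 ± 0.0570 with no overlap. OGG1 had 20.97, 21.6 and 21.2 CPM in the VE-822 libraries of MP38, against 28.7, 29.6 and 29.4 CPM in its DMSO libraries, a fall of 0.46. NEIL2 had 35.7, 38.4 and 39.4 CPM in the VE-822 libraries of MP38, against 45.4, 46.3 and 44.3 CPM in its DMSO libraries, and MPG had 26.9, 28.9 and 30.5 CPM in the VE-822 libraries of MP38, against 34.9, 34.6 and 32.5 CPM in its DMSO libraries. Both were lower in all treated libraries, as were NEIL1 (-0.43) and NTHL1 (-0.25). NEIL3 had 6.68, 5.92 and 6.07 CPM in the VE-822 libraries of MP38, against 3.71, 3.33 and 4.15 CPM in its DMSO libraries. Its rise of 0.74 ± 0.0995 was the largest among the members of this line, with counts of 344 to 364 in VE-822 and 207 to 267 in DMSO. MBD4 had 26.6, 25.3 and 26.9 CPM in the VE-822 libraries of MP38, against 21.7, 20.7 and 21.7 CPM in its DMSO libraries. It rose by 0.30, TDG by 0.47 and SMUG1 by 0.24, each with no overlap between the groups.

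In the break repair step of MP38, PARP2 had 23.8, 24.3 and 24.1 CPM in the VE-822 libraries of MP38, against 17.999, 16.9 and 16.1 CPM in its DMSO libraries. All treated libraries were above all DMSO libraries (log2 fold change 0.50 ± 0.0525). TDP1 had 15.7, 16.6 and 15.5 CPM in the VE-822 libraries of MP38, against 13.4, 12.04 and 14.6 CPM in its DMSO libraries, a rise of 0.25. LIG3 had 52.5, 48.9 and 53.1 CPM in the VE-822 libraries of MP38, against 45.8, 45.6 and 45.5 CPM in its DMSO libraries, a rise of 0.17. TDP2 rose by 0.15 and POLB by 0.17. The call of POLB was lost on leaving out either of 2 libraries. The libraries of TDP2 overlapped, with 28.4, 25.99 and 27.4 CPM in the VE-822 libraries of MP38, against 24.9, 26.3 and 22.7 CPM in its DMSO libraries, and its call was lost on leaving out any of 3 libraries. PARP1 alone of this step fell, to 263 ± 5.001 CPM in VE-822, against 301 ± 3.53 CPM in DMSO. XRCC1 was 17.8 ± 0.248 CPM in VE-822 and 17.3 ± 0.231 CPM in DMSO, APEX1 206 ± 6.65 CPM in VE-822 and 205 ± 0.277 CPM in DMSO and APEX2 38.2 ± 0.610 CPM in VE-822 and 37.5 ± 1.48 CPM in DMSO, and none of these 3 passed the threshold.

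Nucleotide excision genes of MP38 gave the largest change in ERCC1, the partner of the nuclease ERCC4. ERCC1 had 118, 119.9 and 135 CPM in the VE-822 libraries of MP38, against 89.7, 88.7 and 82.5 CPM in its DMSO libraries. It rose by 0.51 ± 0.0478 with no overlap, while ERCC4 rose by 0.12, a call lost under 8 of the 12 alternatives, among them DESeq2, a replicate block and leaving out any of 4 libraries. RAD23B had 206, 210.3 and 211 CPM in the VE-822 libraries of MP38, against 177, 178 and 172 CPM in its DMSO libraries, a rise of 0.25. DDB1 and CETN2 rose by 0.11 and 0.17, the call of DDB1 being lost on leaving out any of 3 libraries and that of CETN2 without DMSO library 2. ERCC8, the CSA subunit that marks stalled polymerases, had 16.9, 17.4 and 15.02 CPM in the VE-822 libraries of MP38, against 22.2, 23.3 and 22.7 CPM in its DMSO libraries, and ERCC2, the XPD helicase, had 31.8, 31.97 and 31.9 CPM in the VE-822 libraries of MP38, against 38.5, 37.3 and 36.6 CPM in its DMSO libraries. Both were lower in all treated libraries, with log2 fold changes of -0.47 ± 0.0573 and -0.23 ± 0.0423. XPA, which verifies the damage, ERCC3, the nuclease ERCC5 and ERCC6 did not pass the threshold, with log2 fold changes of -0.09 (ERCC3) to 0.14 (XPA).

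The direct reversal enzymes of MP38 all changed. MGMT had 27.9, 28.8 and 30.2 CPM in the VE-822 libraries of MP38, against 39.7, 37.3 and 36.9 CPM in its DMSO libraries. Every treated library was lower, by 0.39 ± 0.0466 on the log2 scale. ALKBH2 had 31.7, 31.03 and 34.5 CPM in the VE-822 libraries of MP38, against 40.5, 41.9 and 41.6 CPM in its DMSO libraries, a fall of 0.35, while ALKBH3, which demethylates alkylated bases in single-stranded DNA and RNA, had 44.6, 46.9 and 49.2 CPM in the VE-822 libraries of MP38, against 43.7, 41.6 and 40.9 CPM in its DMSO libraries, a rise of 0.16.

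The responses of the lines differed in 22 of 39 members, tested as the 92.1 response minus the MP38 response in 1 fit of all 12 libraries. In 8 members the difference was above 0 and in 14 below it, that is 20.5% above and 35.9% below, against 22.1% and 18.8% of the 24958 genes tested (40.9% in either direction). It was below 0 for 11 and above 0 for 3 of the 20 base excision genes (median -0.29), but called in only 1 of 5 mismatch repair genes (median -0.08), beside a median of 0.11 over all genes. Nucleotide excision genes had 3 differences above and 2 below 0 (median -0.03). Without DMSO library 3 of 92.1, 21 members were below 0 and 8 above, with 24.8% and 24.3% of all genes (49.1% in either direction), and MSH6, PMS1, SMUG1, POLB, XPA, DDB1 and CETN2 were then called below 0 as well. Calls in opposite directions in the lines were found for 9 members: NEIL3, MBD4, LIG3, TDP1, TDP2, PARP2 and RAD23B were lower in 92.1 and higher in MP38, and NEIL2 and MPG were higher in 92.1 and lower in MP38. The share of all genes with opposite calls is not given here, so whether 9 of 39 stands out cannot be told. For all 9 members the difference itself also passed the test. Calls in opposite directions in the same libraries make that all but certain, so it adds no support.

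NEIL3 differed most, by -3.04 ± 0.160 on the log2 scale (adjusted p = 5.06e-10), followed by PARP2 with -1.32 ± 0.105 (adjusted p = 7.48e-08). XRCC1 and TDP1, both partners of the break repair complex, came next with -0.86 ± 0.0893 and -0.77 ± 0.0988. On the other side NEIL1 and NEIL2 had 0.68 ± 0.0952 and 0.63 ± 0.0828. MSH3, MSH6, PMS2, OGG1, NTHL1 and ALKBH2 were lower in both lines with differences of -0.28 (MSH6) to 0.14 (OGG1) that did not pass the threshold, which does not show that they were equal. Without DMSO library 3 the difference of MSH6 was -0.48 and passed (adjusted p = 1.03e-07). UNG and PARP1 fell in both lines and fell further in 92.1 (difference -0.63 ± 0.175 and -0.73 ± 0.137).

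**Figure D4:**
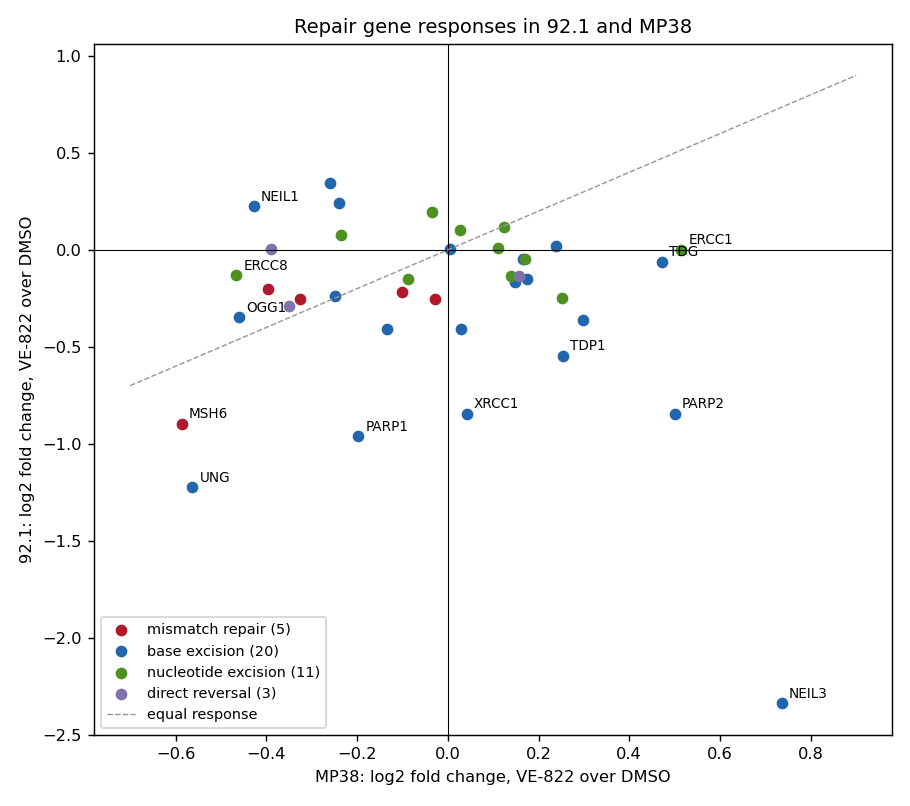
Log2 fold change (VE-822 over DMSO) of each member in 92.1 (vertical axis) against MP38 (horizontal axis), coloured by pathway, with the line of equal response dashed. MSH6 and UNG lie low on both axes, NEIL3 and PARP2 lie in the lower right quadrant, and the nucleotide excision genes lie between -0.25 and 0.19 on the 92.1 axis.

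Markers of dividing cells were measured beside the members. MKI67, TOP2A, CDK1, CCNA2, CCNB1, MCM2, MCM6 and PCNA were all lower in 92.1 (8 of 8, log2 fold change -2.23 to -1.25), whereas in MP38 5 were higher and 2 lower and MCM6 did not pass the test (-0.61 to 1.40). Their median was -1.87 in 92.1 and 1.06 in MP38, where the median of the mismatch repair genes was -0.33. The list was split in MP38, so its median does not stand for every marker. There MKI67, TOP2A, CDK1, CCNA2 and CCNB1 rose by 0.93 to 1.40 on the log2 scale. MCM2 (-0.61) and PCNA (-0.21) fell in that line, and MCM6 was at 0.002. The cell cycle inhibitor CDKN1A rose in both lines: it was 511 ± 52.4 CPM in VE-822 and 18.4 ± 2.23 CPM in DMSO in 92.1, and 44.1 ± 7.39 CPM in VE-822 and 10.4 ± 0.743 CPM in DMSO in MP38. PCNA, the sliding clamp of the fork, had 124, 119 and 115 CPM in the VE-822 libraries of 92.1, against 329, 329 and 195 CPM in its DMSO libraries, so DMSO library 3 lay below the other DMSO libraries here as it did for MSH6, UNG and PARP1. This was not so for every marker. Without that library the median of the 8 markers in 92.1 was -1.96, and TOP2A had -2.06, beside -2.11 with it. The part of proliferation in the members' changes was not tested.

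Other genes of the same pathways, 46 in a list of partners, were lower in 26 cases (56.5%) and higher in 5 (10.9%) in 92.1, against 19.6% and 20.3% of all genes, and higher in 26 cases (56.5%) and lower in 9 (19.6%) in MP38, against 26.9% and 25.4% of all genes. The list was drawn up with earlier results of these data known. Of 13 mismatch repair partners, most of them the clamp, clamp loader and polymerase delta of the fork, 12 were lower in 92.1 (median -1.30), while in MP38 5 were higher (38.5%) and 4 lower (30.8%), nearer the shares of all genes (median 0.08). The exonuclease EXO1 was 21.3 ± 2.79 CPM in VE-822 and 117 ± 22.8 CPM in DMSO in 92.1 (log2 fold change -2.46 ± 0.153) and 25.4 ± 1.40 CPM in VE-822 and 21.7 ± 1.44 CPM in DMSO in MP38 (0.23 ± 0.0563). POLD4, the smallest subunit of polymerase delta and the 1 partner of this pathway that was higher in 92.1, is named for that after its values were seen; it rose in both lines, by 0.71 ± 0.0979 in 92.1 and 0.51 ± 0.0623 in MP38. Of 9 base excision partners 6 were lower in 92.1 (median -0.22) and 6 higher in MP38 (median 0.14). The flap nuclease FEN1 and the ligase LIG1, which close long repair patches and Okazaki fragments, fell by 1.696 and 1.45 in 92.1 and rose by 0.14 and 0.14 in MP38.

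Of 20 nucleotide excision partners, 7 were lower (35%) and 3 higher (15%) in 92.1 (median -0.10), and 11 were higher and 3 lower in MP38 (median 0.14). The single-stranded DNA binding subunits RPA2 and RPA3, shared with replication, had log2 fold changes of -1.14 ± 0.0951 and -1.38 ± 0.0679 in 92.1 and of 0.38 ± 0.0409 and 0.70 ± 0.0729 in MP38. RPA1, another of these subunits, was instead lower in both lines, by 0.53 ± 0.0730 in 92.1 and 0.59 ± 0.0391 in MP38. DDB2, the lesion-binding partner of DDB1 and a p53 target, was the partner with the largest rise in 92.1, with 48.04, 50.8 and 51.2 CPM in the VE-822 libraries of 92.1, against 21.7, 23.6 and 20.8 CPM in its DMSO libraries. That is a log2 fold change of 1.18 ± 0.0643, and in MP38 it was 0.39 ± 0.0469. XPC, another of these partners, was higher in 92.1 (0.72 ± 0.0535) but lower in MP38 (-0.49 ± 0.0495). Its difference between the lines was 1.24 ± 0.0754. The 4 direct reversal partners were all higher in MP38, and in 92.1 there was 1 higher and 1 lower. Without DMSO library 3, 30 of the 46 partners were lower (65.2%) and 7 higher (15.2%) in 92.1, against 29% and 26.8% of all genes.

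Levels between genes were compared per length, in FPKM of the DMSO libraries. APEX1 had the highest FPKM of the members in both lines, at 166 ± 2.57 FPKM in 92.1 and 110.3 ± 0.544 FPKM in MP38. RAD23B followed in both with 51.3 ± 5.09 and 38.5 ± 0.819 FPKM. This order depends on the feature lengths, 18399 bases for PARP1, 15516 for DDB1, 4613 for RAD23B and 1886 for APEX1. In CPM scaled over all 12 libraries, 92.1 in DMSO had 514 for PARP1, 310 for DDB1, 255 for RAD23B and 336 for APEX1. MP38 in DMSO had 283, 341, 165 and 193 CPM for the same genes. By CPM PARP1 and DDB1 thus lay above RAD23B in both lines, and PARP1 also above APEX1. At the low end stood MUTYH in 92.1 (0.325 ± 0.00643 FPKM) and ERCC5 in MP38 (0.448 ± 0.0148 FPKM). ERCC5 shares 63.2% of its exonic bases with the readthrough gene BIVM-ERCC5, whose counts were 1 to 10 per library in 92.1 and 1 to 6 in MP38, so its level is uncertain. Within mismatch repair the order by FPKM differed between the lines. In 92.1 MSH6 was highest with 11.03 ± 2.17 FPKM, against 5.25 ± 0.105 FPKM for MSH3. In MP38 MSH3 had 10.6 ± 0.274 FPKM and MSH6 9.67 ± 0.210 FPKM. After VE-822 MSH6 was at 6.21 ± 0.125 FPKM and MSH3 at 4.62 ± 0.196 FPKM in 92.1, and MSH6 at 6.28 ± 0.483 FPKM and MSH3 at 8.26 ± 0.361 FPKM in MP38. The order in MP38 rests on the feature lengths, 10955 bases for MSH6 and 5329 for MSH3. By CPM of the DMSO libraries MSH6 was above MSH3 in both lines, at 130 and 30.2 in 92.1 and 98.1 and 52.5 in MP38. In VE-822 MSH6 had 69.7 and MSH3 44.6 CPM in MP38, scaled within that line.

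The DMSO libraries of 92.1 and MP38, called untreated here, differed in 36 of 39 members, with 25 higher and 11 lower in 92.1 (64.1% and 28.2%, against 38.5% and 41.2% of the 24958 genes tested, 79.7% in either direction). Without DMSO library 3 of 92.1 the counts were the same, with 39.5% and 42.7% of all genes and 82.2% in either direction. CPM values in this comparison are scaled over all 12 libraries. TDG averaged 96.5 ± 9.48 CPM in untreated 92.1 and 14.9 ± 0.227 CPM in untreated MP38, a log2 difference of 2.69 ± 0.0635. NEIL3 averaged 16.4 ± 0.655 CPM in untreated 92.1 and 3.50 ± 0.388 CPM in untreated MP38 (2.23 ± 0.113), and POLB averaged 47.4 ± 2.49 CPM in untreated 92.1 and 13.9 ± 0.540 CPM in untreated MP38 (1.77 ± 0.0556). All 7 genes of break repair and gap filling were higher in 92.1, with a median of 1.02. Lower in 92.1 were MGMT, with 15.3 ± 0.390 CPM in untreated 92.1 and 35.6 ± 1.45 CPM in untreated MP38 (-1.21 ± 0.0577), OGG1 (-1.27 ± 0.0614), NEIL1 (-1.32 ± 0.0680) and MUTYH (-0.96 ± 0.113). All 3 direct reversal enzymes were lower in 92.1. The 8 proliferation markers were all higher in untreated 92.1, by 1.03 to 3.56 on the log2 scale. The lines differ in depth and have separate tables, so line and sequencing cannot be told apart here.

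**Figure D5:**
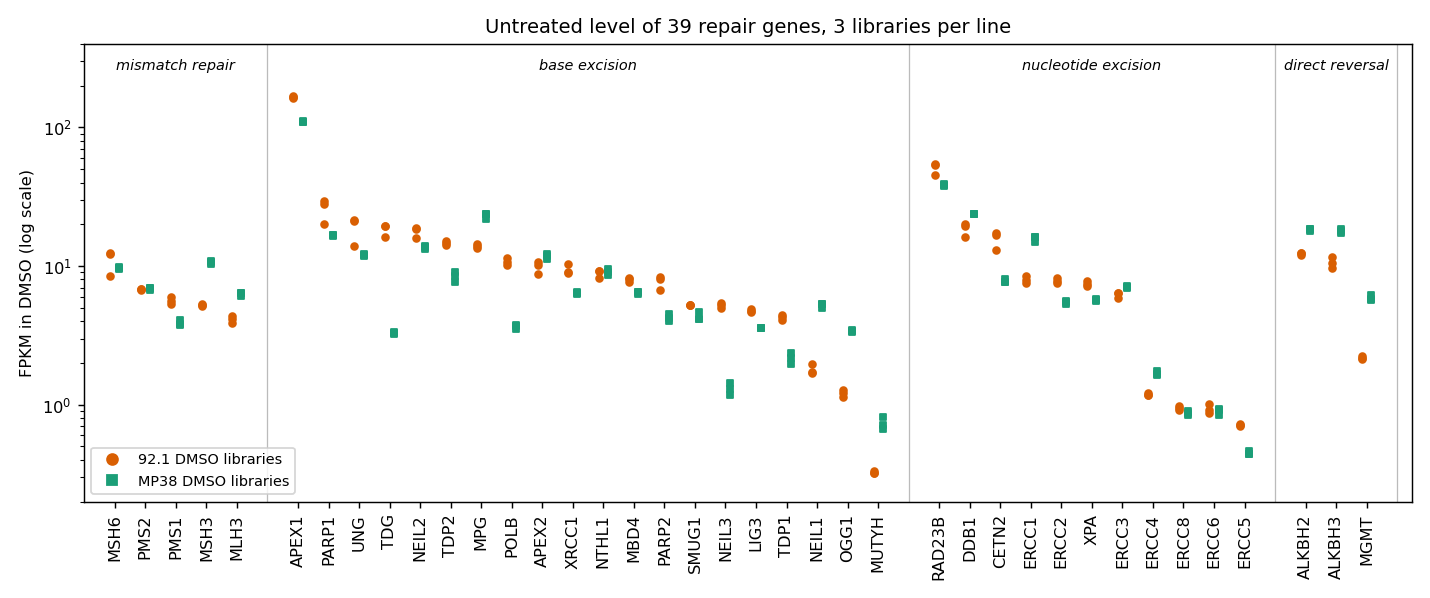
FPKM (log scale) of each member in the 3 DMSO libraries of 92.1 (circles) and of MP38 (squares), by pathway and in falling order of 92.1. APEX1 is highest in both lines, and TDG, NEIL3 and POLB lie higher in 92.1 while MGMT, OGG1 and NEIL1 lie higher in MP38.

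Several members overlap other genes, and the labels do not state whether counting used strand. In the GENCODE 29 annotation 23 members share exonic bases with another counted feature, and 11 share at least 10% with 1 of them. The lengths used in counting differ from GENCODE 29 for some members, with 15850 against 8460 bases for ERCC4 and 26458 against 5448 for ERCC8. The shares therefore describe the counted features only roughly. ERCC1 shares 28.6% of its exonic bases with CD3EAP on the other strand, LIG3 29.1% with RFFL, MPG 27.3% with NPRL3, NEIL1 26.4% with MAN2C1, ERCC4 25.7% with AC010401.1, OGG1 25% with CAMK1, NTHL1 16.5% with TSC2, MSH6 16.2% with FBXO11, XRCC1 15.5% with L34079.3 and MUTYH 14.1% with TOE1, so their levels are uncertain to that extent. NEIL3, UNG, PARP1, TDP1, TDG and RAD23B share none in GENCODE 29.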

How the data were processed

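Libraries of 12 samples were prepared from poly(A) RNA (NEBNext Ultra II), per the labels' protocols. Per the submitters' processing notes, STAR 2.7.11a, featureCounts 2.0.6, cutadapt 4.8, MultiQC 1.7 and FastQC 0.12.1 were used with GRCh38.p13; parameters and strand setting are not given in the sources used here. The authors deposited raw counts per gene, 1 table per line, and FPKM values, which equal those counts over feature length and library total to within 0.001.

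From the counts, genes were kept by filterByExpr (minimum count 10, minimum total 15), scaled by TMM and tested in R 4.3.3 with edgeR 4.0.16 (quasi-likelihood F test) in each line alone, and over features of both tables for the difference between lines and between untreated lines, with Benjamini-Hochberg adjustment over all genes tested and a threshold of 0.05. Log2 fold changes are VE-822 over DMSO, or 92.1 over MP38. CPM are TMM-scaled, and SE is taken from the F statistic. DESeq2 1.42.0 was an alternative. On simulated data, genes changed 2 times with at least 1 CPM were recovered in 92% of cases in 92.1, 100% in MP38 and 88% in the difference.

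Values in every library are given for members with the largest called changes per pathway and line, with calls opposite between lines or with a difference of at least 1; PARP1, XRCC1 and PCNA were added after their values were seen. Members and lists were chosen with earlier results of these data known. The alternatives were other scalings, no filter, DESeq2, a robust fit, a replicate block and leaving out each library.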

Additional observations from a re-analysis of the deposited data

Results flagged for a closer look

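The response differed between the lines in 22 members, by the test of 92.1 minus MP38 in all 12 libraries (edgeR, adjusted p under 0.05; 40.9% of all genes tested passed). Among glycosylases the log2 difference was -3.04 for NEIL3, -0.63 for UNG, -0.63 for MBD4 and -0.50 for TDG, and on the other side 0.68 for NEIL1, 0.63 for NEIL2 and 0.51 for MPG. Later steps of base excision had -1.32 for PARP2, -0.86 for XRCC1, -0.77 for TDP1, -0.73 for PARP1, -0.41 for APEX2, -0.30 for LIG3 and -0.28 for TDP2. Nucleotide excision genes had -0.48 for ERCC1 and -0.47 for RAD23B, and 0.37 for ERCC8, 0.34 for ERCC2 and 0.26 for ERCC6. MLH3 had 0.22, MGMT 0.43 and ALKBH3 -0.26. Under every setting tried 18 of the 22 were called in the same direction, and MLH3, ERCC6, ALKBH3 and TDP2 were not. The same share over all genes is not given here.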

How the results depend on the processing

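The members' values, their counts, the pathway medians in each line and the counts over all genes were recomputed with RLE factors, with library size only, without a filter, with DESeq2, with a robust fit, with a replicate block and without each library in turn; for the partner and marker lists only leaving out DMSO library 3 of 92.1 was run, and FPKM levels were not recomputed. In 92.1, leaving out a library gave 1 to 4 members higher and 13 to 26 lower, and 3399 to 6377 genes higher and 3343 to 6899 lower among all tested; the highest counts came without DMSO library 3. With library size only, 6 members of 92.1 were higher, and the pathway medians were -0.18 for mismatch repair, -0.22 for base excision and 0.07 for nucleotide excision. The last of these ran from -0.11 to 0.0204 with a library left out. In MP38, library size only gave -0.36 for mismatch repair, -0.0031 for base excision and 0.072 for nucleotide excision, and the mismatch repair median ran from -0.36 to -0.30 with a library left out. Library size only put the median of all genes at -0.27, beside -0.05 with TMM, in the comparison of untreated lines, where PMS2 (-0.017), NTHL1 (-0.0427) and ERCC3 (-0.19) then changed sign. DDB1 in 92.1 ran from -0.11, without DMSO library 3, to 0.0466 with another library left out, and the cause was not tested. The 74 other sign changes were of 13 members that passed the threshold in neither setting, with values of at most 0.0724 from 0.

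Deviations of same-numbered libraries from their group means correlated weakly (-0.102 to -0.018 in MP38 and 0.088 to 0.111 in 92.1), so the numbers were not taken as pairs, although in 92.1, unlike MP38, every library correlated best with its own number, which is a hint from the data and not from the design. With the replicate number as a block, 19 members of 92.1 were lower and 2 higher, 14 members of MP38 were higher and 14 lower, and no count moved by over 1.5 times. The block ended the calls of LIG3 in 92.1 (adjusted p = 0.0514), PMS2 (0.0797) and ERCC4 (0.0646) in MP38, ALKBH3 in the difference (0.0606) and NTHL1 between untreated lines (0.0996), and changed no other call of a member. Under every setting tried, 14 members kept their call in 92.1, 24 in MP38, 18 in the difference and 31 between untreated lines. These counts are of members only, without the same share over all genes beside them. The lowest count of a member in any library was 177 (MUTYH); in the self-test on simulated data, genes changed 1.5 times were recovered in 72% of cases in 92.1 and 92% in MP38, so smaller changes can be missed, more often in 92.1.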
